A study of Mus musculus with 8 samples.

Results

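The genes described here encode 35 proteins of the lysosome: proteases, glycosidases, sulfatases, lipid-handling enzymes and their cofactors, membrane proteins, and 2 regulators. They were chosen by symbol, as rows of the array table whose annotation gives exactly that symbol. All 35 of the 35 listed genes were found among the 19938 genes annotated in this way. Arsb had 2 rows, and each gene was represented by the row with the highest mean over all arrays. The RNA of bone marrow progenitors sorted from mice aged 7 weeks on a C57BL6 N12 backcrossed background, with 200000 cells per sample, was hybridised to 8 Affymetrix Mouse Gene 1.0 ST arrays. The knockout mice (KO) had the genotype Vav1-iCre x Cbfb(F/F), in which a Cre recombinase driven by the Vav1 promoter, active in blood cells, can delete both floxed alleles of Cbfb. The heterozygous mice (Het) had the genotype Vav1-iCre x Cbfb(F/+), with the same Cre, 1 floxed allele and 1 intact allele. LSK cells (lineage-negative Sca-1+ Kit+, where hematopoietic stem cells and the earliest progenitors lie) and GMP cells (granulocyte-macrophage progenitors) came from 2 mice of each genotype. The 4 groups are therefore KO LSK, Het LSK, KO GMP and Het GMP, each with 2 arrays. No wild type was measured, so every effect of genotype is that of KO against Het, and all groups carry the Cre.

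The lysosome is the acidic compartment in which cells break down proteins, glycans, nucleic acids and lipids. Most of its soluble enzymes receive a mannose 6-phosphate tag in the Golgi apparatus, are carried by receptors for that tag and become active in the acid made by a proton pump, the V-ATPase. The transcription factor TFEB and its relatives bind the palindrome CACGTG in the promoters of many lysosomal genes. In blood, monocytes, macrophages and dendritic cells are rich in lysosomes, and cathepsin S of antigen-presenting cells cuts the invariant chain (Cd74) that guards MHC class II molecules. Cbfb encodes the partner protein with which Runx transcription factors hold DNA more tightly, and the Runx core site reads TGTGGT.

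All values are the deposited RMA (robust multi-array average) expression values, on the log2 scale, and differences are on the log2 scale, so that a difference of 1 is a 2-fold change. Each row gathers probes of its own, so levels are compared between groups of a gene and never between genes. Over the 21789 rows with 1 gene symbol, array medians lay between 4.92 and 5.09, and pairs of arrays correlated more closely within groups (0.990 to 0.995) than between groups (0.955 to 0.983). Cbfb itself averaged 6.96 ± 0.04 in KO LSK and 7.56 ± 0.01 in Het LSK, and 6.72 ± 0.34 in KO GMP and 7.59 ± 0.09 in Het GMP (SD, n = 2 each). The sources used here do not say which part of Cbfb is deleted, and a probe outside the deletion checks nothing. Of the markers of the sort, Fcgr3, an Fc receptor gene of GMP cells, lay between 8.67 and 9.74 in the GMP arrays and between 4.79 and 6.45 in the LSK arrays. Kit lay between 9.14 and 10.76 in all arrays, and Ly6a, the gene of Sca-1, was not analysed here. Arrays of a group are biological replicates by their labels, but none is tied to a single mouse, so the p-values speak of the spread among these arrays alone. With 2 arrays a side, the smallest p of an exact two-sided permutation test is 0.333, and every p-value below is limma's, adjusted by Benjamini-Hochberg over all 21789 rows. A gene is called, and is said to have risen or fallen, where that adjusted p was under 0.05. Of 5 markers of the sort, 2 rose and 1 fell in KO LSK (3.02% and 4.71% of all rows), and 2 rose in KO GMP (3.45%). Fcgr2b rose by 2.44 in LSK and 0.80 in GMP, and Il7r fell by 1.84 and rose by 2.03. Fcgr3 rose by 1.07 in LSK, a call lost with every array left out except Het LSK replicate 2. The GMP call of Fcgr2b was lost without KO GMP replicate 1 or either Het GMP array. Whether the gates held the same cells in both genotypes was not tested.

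The first comparison asked which lysosomal genes differ between KO and Het in LSK cells. In KO LSK, 11 of the 35 genes fell and 0 rose by limma. Over all rows, 4.71% were called lower and 3.02% higher in this comparison. The largest falls were those of Gm2a, a lipid-binding cofactor that is needed to degrade the ganglioside GM2 (fell by 2.84), Ctss, which encodes cathepsin S (fell by 2.55), and Ctsh, which encodes cathepsin H (fell by 1.48). The median difference of the 35 genes was -0.15, against 0.01 over all rows. For 18 of the genes both KO arrays read lower than either Het array, and for 4 both read higher, where 22.7% and 22.8% of all rows did so. At an unadjusted p under 0.05, 15 were lower and 1 was higher, where 10.8% of all rows were lower and 8.77% higher.

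In GMP cells the same comparison gave 8 genes that fell in KO and 0 that rose by limma, where 2.57% of all rows were called lower and 3.45% higher. The largest falls were again those of Ctss (fell by 2.45), Ctsh (fell by 2.41) and Gm2a (fell by 1.00). The median of the 35 genes was -0.12, against -0.02 over all rows. For 19 genes both KO arrays read lower than either Het array, and for 4 both read higher, against 27.9% and 23.4% of all rows. At an unadjusted p under 0.05, 13 were lower and 0 were higher, where 8.71% of all rows were lower and 8.55% higher. The genes that fell in both cell types were Ctss, Ctsh, Gm2a and Psap, which are 4 of the 11 called in LSK and 4 of the 8 called in GMP. Over all rows, 263 were called lower in both, of 1027 called lower in LSK and 560 in GMP. In these bulk samples, fewer cells of a type that expresses a gene and less RNA of that gene per cell cannot be told apart.

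The counts depend on single arrays. In LSK, 5 genes were called lower without Het GMP replicate 1, Het GMP replicate 2 or Het LSK replicate 1, 6 without Het LSK replicate 2 or KO LSK replicate 2, 8 without either KO GMP array and 9 without KO LSK replicate 1. In GMP, 2 were called lower without Het GMP replicate 1, Het GMP replicate 2 or KO GMP replicate 2, 4 without KO GMP replicate 1, and 8 without any 1 of the LSK arrays. In LSK the calls of Ctss, Ctsh, Gm2a, Psap and Arsb held with each array left out in turn, and in GMP those of Ctss and Ctsh did. After each array's median was subtracted, 8 genes were called lower in LSK and 9 in GMP. That scaling moved the share of higher calls over all rows in LSK to 52.4%, against 39.0% as deposited.

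**Figure D1:**
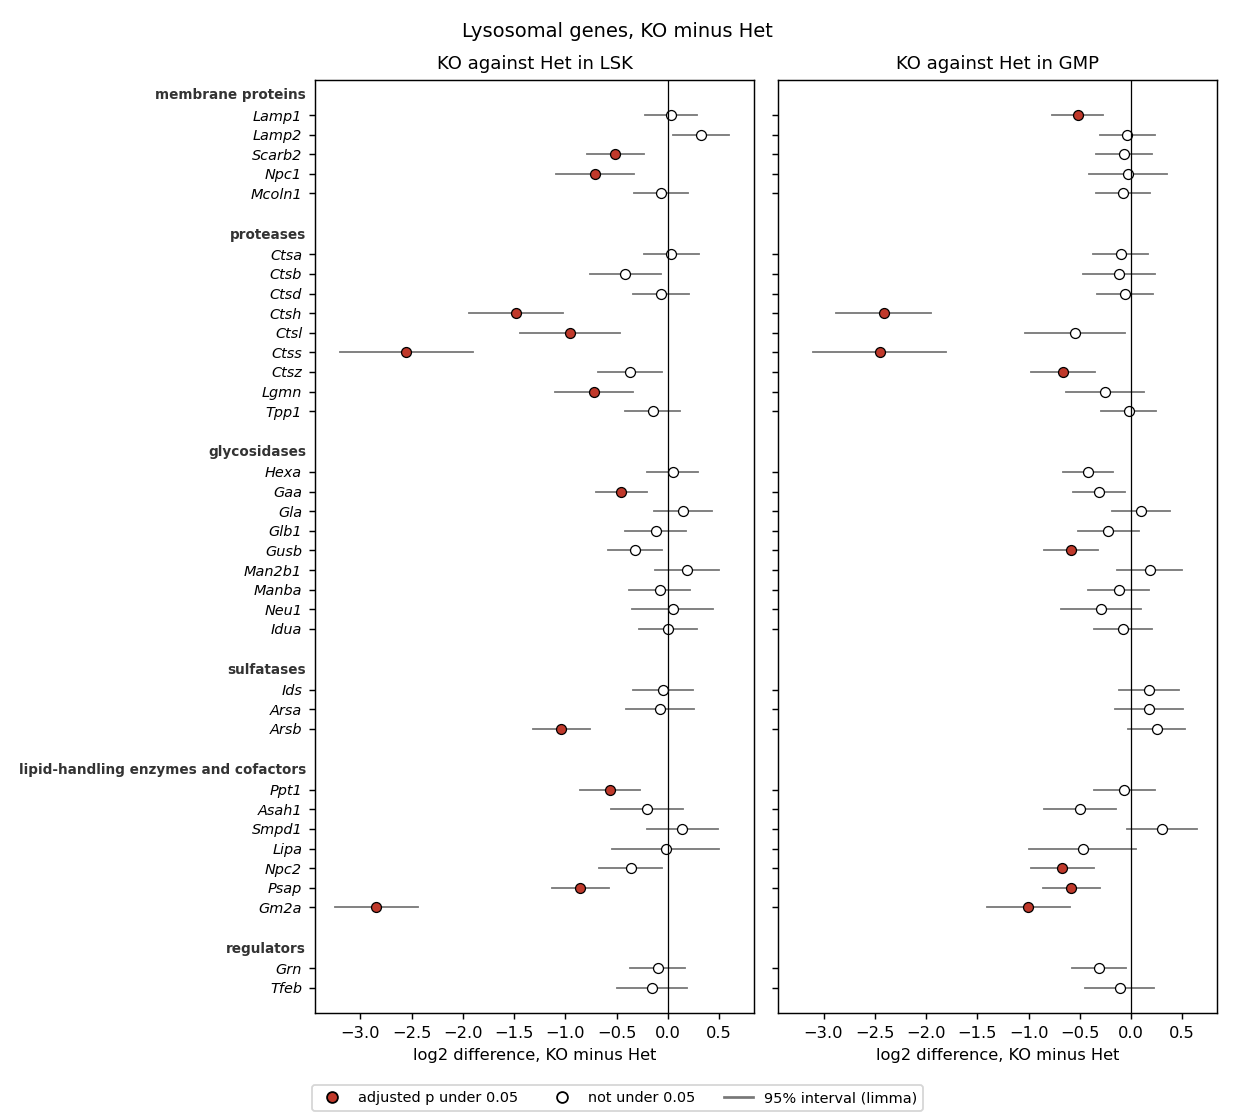
Log2 difference of KO minus Het for each of the 35 lysosomal genes, grouped by role, in LSK (left panel) and GMP (right panel). Points are limma estimates from 2 arrays per group, bars are 95% intervals, and filled points have an adjusted p under 0.05: 11 genes are filled in LSK and 8 in GMP, each of them left of 0.

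The promoters of the lysosomal genes were searched for CACGTG, the core bound by TFEB and its relatives, for its longer form TCACGTG, which contains it, and for TGTGGT, the core bound by Runx factors, on both strands. The windows run from 250 bases before to 50 bases after the annotated start, in RefSeq sequence of GRCm38.p6. Of the 35 genes, 31 had an entry, and Ctsh, Npc1, Asah1 and Ctsb had none. CACGTG stood in a promoter of 10 of the 31 genes (32.3%), against 8.09% of all 27025 genes in the table. TCACGTG stood in 9 (29.0%), against 4.29% of all genes, and TGTGGT in 6 (19.4%), against 18.9%. Among the 15 genes called lower in KO in LSK or GMP, 13 had an entry and 4 of these held CACGTG (30.8%): Lamp1, Gaa, Lgmn and Ctsl. Among the 20 genes called in neither, 18 had an entry and 6 held it (33.3%). The 5 promoters below are shown because they span both outcomes. Lamp1 (fell in GMP) holds CACGTG 4 times, 61, 45, 28 and 15 bases before the start, Gaa (fell in LSK) holds it once, 140 bases before, and Ctsd (called in neither) holds it at 245 and 98 bases before. Ctss and Gm2a, which had the largest falls, hold none of the 3 motifs within their windows, which says only that these letters are not there. Capitals mark CACGTG and, in Lamp1, also the reverse complement of TGTGGT that follows the third CACGTG, 22 bases before the start. Each sequence runs 5′ to 3′ on the strand of its gene.
Lamp1 (chr8:13158911-13159210, + strand): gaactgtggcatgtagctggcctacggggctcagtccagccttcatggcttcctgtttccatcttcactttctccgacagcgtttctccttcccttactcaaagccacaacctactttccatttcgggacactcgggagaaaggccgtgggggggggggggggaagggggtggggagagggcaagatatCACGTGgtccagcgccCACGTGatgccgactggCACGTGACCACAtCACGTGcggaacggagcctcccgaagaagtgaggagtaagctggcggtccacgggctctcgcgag
Gaa (chr11:119267713-119268012, + strand): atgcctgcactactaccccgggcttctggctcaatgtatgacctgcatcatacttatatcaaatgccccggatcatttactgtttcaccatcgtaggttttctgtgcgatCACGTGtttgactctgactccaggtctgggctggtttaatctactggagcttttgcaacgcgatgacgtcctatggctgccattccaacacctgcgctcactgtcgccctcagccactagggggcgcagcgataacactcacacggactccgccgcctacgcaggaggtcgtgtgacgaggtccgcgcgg
Ctsd (chr7:142387778-142388077, - strand): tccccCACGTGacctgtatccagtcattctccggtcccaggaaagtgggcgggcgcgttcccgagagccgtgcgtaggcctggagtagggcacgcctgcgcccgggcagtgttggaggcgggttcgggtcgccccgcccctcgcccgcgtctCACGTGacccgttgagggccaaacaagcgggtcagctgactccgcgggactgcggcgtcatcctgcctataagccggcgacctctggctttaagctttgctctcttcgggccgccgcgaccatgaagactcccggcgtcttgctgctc
Ctss (chr3:95526536-95526835, + strand): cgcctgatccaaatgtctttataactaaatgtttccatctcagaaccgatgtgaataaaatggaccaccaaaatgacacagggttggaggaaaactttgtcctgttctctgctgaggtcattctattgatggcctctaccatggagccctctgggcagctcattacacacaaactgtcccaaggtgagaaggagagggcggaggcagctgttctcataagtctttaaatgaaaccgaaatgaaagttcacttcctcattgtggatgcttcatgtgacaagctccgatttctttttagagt
Gm2a (chr11:55097735-55098034, + strand): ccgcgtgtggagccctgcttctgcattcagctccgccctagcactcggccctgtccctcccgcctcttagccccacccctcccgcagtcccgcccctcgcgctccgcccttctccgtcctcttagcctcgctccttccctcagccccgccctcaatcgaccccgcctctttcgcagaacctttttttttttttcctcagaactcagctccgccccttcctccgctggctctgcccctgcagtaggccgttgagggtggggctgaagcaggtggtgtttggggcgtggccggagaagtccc
A match is a description of the sequence, not a site that was shown to be bound.

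Among the 9 proteases, 4 fell in LSK (Ctss, Ctsh, Ctsl and Lgmn) and 3 in GMP (Ctss, Ctsh and Ctsz), and 0 rose in either. Ctss encodes cathepsin S, the cysteine protease of antigen-presenting cells that degrades the MHC class II invariant chain. It read 5.34 and 5.58 in KO LSK, against 8.19 and 7.83 in Het LSK. In GMP it read 5.26 and 4.23 in KO, against 7.23 and 7.17 in Het. All KO arrays lay far below all Het arrays of the same cell type, and the arrays of KO GMP lay apart from each other. The difference was -2.55 in LSK (SE 0.29, 5.87-fold lower, limma adjusted p = 0.000716) and -2.45 in GMP (SE 0.29, 5.48-fold lower, adjusted p = 0.00104).

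Cathepsin H, the product of Ctsh, is an aminopeptidase of the same family. Ctsh read 3.84 and 3.82 in KO LSK, against 5.15 and 5.47 in Het LSK. In GMP it read 4.88 and 4.32 in KO, against 6.85 and 7.18 in Het. The KO arrays were the low ones in both cell types, without overlap, and all 4 of them lay below the median row mean of 5.02. Ctsh fell by 1.48 in LSK (SE 0.20, adjusted p = 0.0023) and fell by 2.41 in GMP (SE 0.20, 5.33-fold lower, adjusted p = 0.000182) by limma. The difference between these effects was -0.93 and did not pass (adjusted p = 0.173).

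Ctsl encodes cathepsin L, a cysteine endopeptidase. It read 5.56 and 4.97 in KO LSK against 6.31 and 6.13 in Het LSK, and 5.70 and 5.24 in KO GMP against 5.95 and 6.09 in Het GMP. Its KO arrays were below its Het arrays in both cell types, and it was called in LSK (-0.96, SE 0.22, limma adjusted p = 0.0287) but not in GMP (-0.55, adjusted p = 0.229). Legumain, the product of Lgmn, cuts after asparagine and processes other lysosomal proteases. Lgmn read 3.85 and 3.64 in KO LSK against 4.63 and 4.30 in Het LSK, and 3.79 and 3.50 in KO GMP against 3.79 and 4.01 in Het GMP. All of these values lie below the median row mean, and RMA gives no detection call, so they are not shown to be expression. Lgmn fell by 0.72 in LSK (limma adjusted p = 0.0321) and differed by -0.26 in GMP (adjusted p = 0.517). The LSK call of Ctsl was lost without KO LSK replicate 2, either Het LSK array or either Het GMP array (adjusted p = 0.0537 to 0.158). That of Lgmn was lost without KO LSK replicate 2, Het LSK replicate 1 or either Het GMP array (adjusted p = 0.0516 to 0.190).

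Cathepsin Z, a carboxypeptidase encoded by Ctsz, was lower in the KO arrays of both cell types and was called in GMP. It read 8.66 and 8.46 in KO GMP, against 9.34 and 9.11 in Het GMP (-0.66, SE 0.14, 1.58-fold lower, limma adjusted p = 0.0234). In LSK it read 7.35 and 7.51 in KO, against 7.86 and 7.73 in Het (-0.37, adjusted p = 0.177). The GMP call was lost without any 1 of the 4 GMP arrays, KO GMP replicate 1 or 2 and Het GMP replicate 1 or 2 (adjusted p = 0.0539 to 0.193).

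Cathepsins D and B, which most cell types make, were not called in either cell type. Ctsd encodes cathepsin D, the main aspartic protease of the lysosome. It read 9.80 and 9.61 in KO LSK against 9.71 and 9.82 in Het LSK, and 9.79 and 9.85 in KO GMP against 9.89 and 9.87 in Het GMP. The LSK arrays of both genotypes overlapped, and the difference was -0.06 in LSK (95% interval -0.34 to 0.21) and -0.06 in GMP (-0.33 to 0.21). Ctsb encodes cathepsin B, a cysteine protease with both endopeptidase and carboxypeptidase activity. It read 7.58 and 7.46 in KO LSK against 7.75 and 8.11 in Het LSK, and 8.97 and 8.74 in KO GMP against 8.91 and 9.04 in Het GMP. Its difference of -0.41 in LSK had an adjusted p of 0.172 by limma, with no overlap of the arrays, and that of -0.12 in GMP had an adjusted p of 0.785. Ctsa, which encodes the protective protein of neuraminidase and beta-galactosidase, and Tpp1, a tripeptidyl peptidase gene, differed by 0.03 and -0.15 in LSK and by -0.10 and -0.02 in GMP, and were not called.

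The 7 lipid-handling genes held the largest fall of all 35. In LSK, 3 of them fell (Gm2a, Psap and Ppt1) and in GMP also 3 (Gm2a, Npc2 and Psap), with 0 called higher. Gm2a encodes the GM2 activator, which lifts the ganglioside out of the membrane for its degradation. It read 6.54 and 6.69 in KO LSK, against 9.48 and 9.44 in Het LSK. In GMP it read 8.50 and 7.95 in KO, against 9.14 and 9.32 in Het. KO LSK was the lowest group by far, and KO GMP lay between it and the Het arrays. Gm2a fell by 2.84 in LSK (SE 0.18, 7.18-fold lower, limma adjusted p = 4.2e-05). It fell by 1.00 in GMP (SE 0.18, adjusted p = 0.0108), a call that was lost without KO GMP replicate 2, Het GMP replicate 1 or Het GMP replicate 2 (adjusted p = 0.0526 to 0.0955).

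Psap encodes prosaposin, which is cut into the saposins, the activator proteins for enzymes that degrade sphingolipids. It read 8.10 and 8.14 in KO LSK against 8.89 and 9.05 in Het LSK, and 8.20 and 8.02 in KO GMP against 8.66 and 8.72 in Het GMP. All 4 KO arrays lay below all 4 Het arrays. Psap fell by 0.85 in LSK (SE 0.12, 1.81-fold lower, limma adjusted p = 0.00302) and fell by 0.58 in GMP (SE 0.12, adjusted p = 0.0252). The GMP call was lost without any 1 of the 4 GMP arrays, of KO or of Het (adjusted p = 0.0621 to 0.202).

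Npc2 encodes the soluble protein that hands cholesterol to the membrane protein Npc1 for export from the lysosome, and each of the pair was called in 1 cell type. Npc2 read 9.18 and 9.18 in KO LSK against 9.55 and 9.53 in Het LSK, and 9.51 and 9.17 in KO GMP against 10.06 and 9.97 in Het GMP. Its KO arrays were below its Het arrays in both cell types. It fell by 0.67 in GMP (SE 0.14, limma adjusted p = 0.0207) and in LSK differed by -0.36 (adjusted p = 0.176). The GMP call was lost without KO GMP replicate 2, Het GMP replicate 1 or Het GMP replicate 2 (adjusted p = 0.0943 to 0.170). Npc1 read 7.30 and 6.77 in KO LSK against 7.78 and 7.72 in Het LSK, and 7.08 and 6.98 in KO GMP against 7.07 and 7.06 in Het GMP. Het LSK was the high group, and the GMP arrays overlapped. Npc1 fell by 0.71 in LSK (SE 0.17, limma adjusted p = 0.0336) and differed by -0.03 in GMP. The LSK call was lost with every array left out except KO LSK replicate 1 (adjusted p = 0.0559 to 0.154).

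Ppt1, a palmitoyl-protein thioesterase that removes fatty acids from proteins, read 8.36 and 8.12 in KO LSK, against 8.81 and 8.79 in Het LSK. In GMP it read 8.87 and 8.66 in KO, against 8.84 and 8.82 in Het. KO LSK was the low group, and the GMP arrays overlapped. Ppt1 fell by 0.56 in LSK (SE 0.13, limma adjusted p = 0.0319) and differed by -0.07 in GMP (adjusted p = 0.872). The LSK call was lost without KO LSK replicate 2, either Het LSK array or either Het GMP array (adjusted p = 0.0623 to 0.140), and with array medians subtracted (adjusted p = 0.0512). The other lipid enzymes were not called: Asah1, acid ceramidase, differed by -0.20 in LSK and -0.50 in GMP, Smpd1, acid sphingomyelinase, by 0.14 and 0.30, and Lipa, acid lipase, by -0.02 and -0.47.

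Of the 9 glycosidases, 1 fell in LSK (Gaa), 1 fell in GMP (Gusb) and 0 rose. Gaa encodes acid alpha-glucosidase, which degrades glycogen. It read 7.04 and 6.99 in KO LSK against 7.49 and 7.44 in Het LSK, and 7.43 and 7.37 in KO GMP against 7.74 and 7.69 in Het GMP. The KO arrays were lower in both cell types, and the arrays of each group lay close together. Gaa fell by 0.45 in LSK (SE 0.11, 1.37-fold lower, limma adjusted p = 0.0399) and differed by -0.31 in GMP (adjusted p = 0.168). Its LSK call was lost with each of the 8 arrays left out in turn (adjusted p = 0.0734 to 0.175) and with array medians subtracted (adjusted p = 0.0905).

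Gusb encodes beta-glucuronidase, which cuts glycosaminoglycans. It read 7.83 and 7.76 in KO GMP, against 8.42 and 8.36 in Het GMP. In LSK it read 7.13 and 7.28 in KO, against 7.54 and 7.50 in Het. The KO arrays lay below the Het arrays in both. Gusb fell by 0.59 in GMP (SE 0.12, 1.5-fold lower, limma adjusted p = 0.0177) and in LSK differed by -0.32 (adjusted p = 0.16). The GMP call was lost without any 1 of the 4 GMP arrays, of KO or of Het (adjusted p = 0.0839 to 0.140). The other 7 glycosidases lay between -0.12 and 0.19 in LSK and between -0.42 and 0.18 in GMP. The lowest of these, Hexa, an enzyme gene whose product works with the GM2 activator, had an adjusted p of 0.0608 in GMP by limma (-0.42) and differed by 0.05 in LSK.

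Among the 3 sulfatases, Arsb fell in LSK and 0 were called in GMP. Arsb encodes arylsulfatase B, which removes sulfate from dermatan and chondroitin sulfate. It read 6.56 and 6.63 in KO LSK, against 7.68 and 7.58 in Het LSK. In GMP it read 10.02 and 9.81 in KO, against 9.62 and 9.72 in Het. KO was the low genotype in LSK and the high one in GMP, without overlap in either. Arsb fell by 1.04 in LSK (SE 0.12, 2.05-fold lower, limma adjusted p = 0.00102) and differed by 0.25 in GMP (adjusted p = 0.36). The other Arsb row gave -1.10 in LSK and 0.31 in GMP. Arsa, arylsulfatase A, which acts on sulfatide, differed by -0.08 in LSK and 0.17 in GMP, and Ids, iduronate sulfatase, by -0.04 and 0.18, and neither was called.

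The 5 membrane proteins gave 2 falls in LSK (Npc1, above, and Scarb2) and 1 in GMP (Lamp1). Scarb2 encodes LIMP-2, a receptor and membrane protein of the lysosome. It read 6.61 and 6.82 in KO LSK against 7.22 and 7.23 in Het LSK, and 7.42 and 7.31 in KO GMP against 7.40 and 7.46 in Het GMP. KO LSK stood below the other groups. Scarb2 fell by 0.51 in LSK (SE 0.12, limma adjusted p = 0.0363) and differed by -0.07 in GMP (adjusted p = 0.854). The call was lost with every array left out except KO LSK replicate 2 (adjusted p = 0.0623 to 0.155) and with array medians subtracted (adjusted p = 0.0877).

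Lamp1 encodes one of the abundant glycoproteins that line the lysosomal membrane. It read 9.33 and 9.40 in KO GMP, against 9.92 and 9.85 in Het GMP. In LSK it read 9.0023 and 9.0703 in KO, against 9.0069 and 9.0003 in Het. The KO arrays were lower in GMP and overlapped with the Het arrays in LSK. Lamp1 fell by 0.52 in GMP (SE 0.11, 1.43-fold lower, limma adjusted p = 0.026) and differed by 0.03 in LSK (95% interval -0.22 to 0.28). The GMP call was lost without any 1 of the 4 GMP arrays, of KO or of Het (adjusted p = 0.110 to 0.179). Its relative Lamp2 differed by 0.32 in LSK (adjusted p = 0.168), the highest difference of the 35 genes there, and by -0.04 in GMP. Mcoln1, the calcium channel of the lysosomal membrane, differed by -0.06 and -0.07.

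The 2 regulators were not called in either cell type. Tfeb encodes the transcription factor that drives lysosomal genes when it moves to the nucleus. It read 5.16 and 4.80 in KO LSK against 5.11 and 5.16 in Het LSK, and 4.96 and 5.19 in KO GMP against 5.22 and 5.14 in Het GMP. The arrays of KO and Het overlapped in both cell types, and the values lie near the median row mean. The difference was -0.15 in LSK (95% interval -0.49 to 0.19) and -0.11 in GMP (-0.45 to 0.23), and where the protein was in the cell was not measured. Grn encodes progranulin, a secreted and lysosomal glycoprotein. It read 9.06 and 9.02 in KO LSK against 9.16 and 9.13 in Het LSK, and 9.70 and 9.60 in KO GMP against 9.88 and 10.04 in Het GMP. Its KO arrays lay below its Het arrays in both cell types. The difference was -0.10 in LSK (limma adjusted p = 0.723) and -0.31 in GMP (adjusted p = 0.204), without a call.

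**Figure D2:**
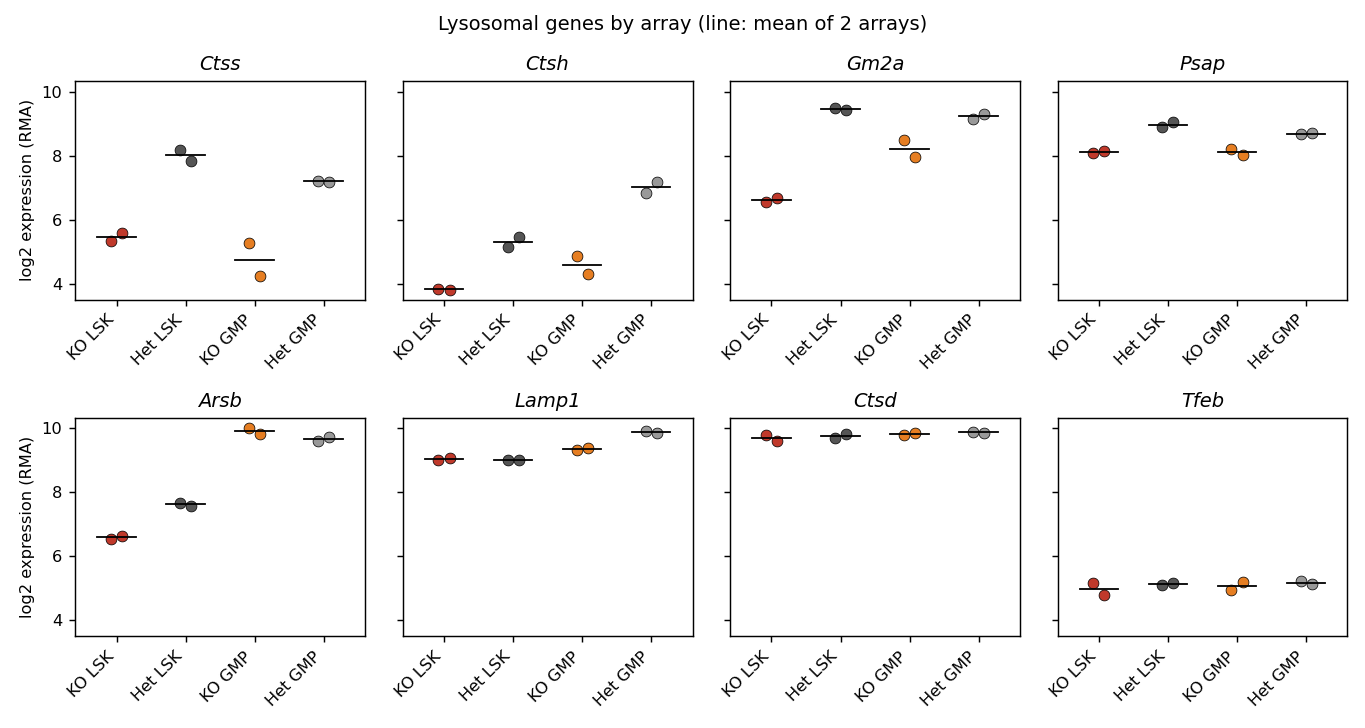
Log2 expression (RMA) of 8 lysosomal genes in each array, by group from left to right KO LSK, Het LSK, KO GMP and Het GMP; points are arrays and lines are means of 2 arrays. Ctss, Ctsh, Gm2a and Psap are lower in KO than in Het in both cell types, Arsb is lower in KO in LSK (6.56 and 6.63 against 7.68 and 7.58), Lamp1 is lower in KO in GMP, and Ctsd and Tfeb lie close together in all 4 groups.

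Whether genotype acted differently in the 2 cell types was tested by the interaction, the KO minus Het difference in GMP minus that in LSK. Of the 35 genes, 2 passed, both with a positive interaction by limma, where 1.69% of all rows were called higher and 0.601% lower. Gm2a had an interaction of 1.84 (SE 0.25, adjusted p = 0.00747), as it fell further in LSK than in GMP. Arsb had an interaction of 1.29 (SE 0.17, adjusted p = 0.0073), with a fall in LSK and a small difference the other way in GMP. Both interactions were called whichever array was left out, and that of Gm2a was lost when rows with no symbol or several were tested too (adjusted p = 0.054). Of the 11 genes called in 1 cell type only, the other 10 had interactions that did not pass (adjusted p = 0.136 to 0.808), so that their effects are not shown to differ between LSK and GMP. Among the genes that fell in both, the interaction of Ctss was 0.10 (95% interval -0.82 to 1.01) and that of Psap was 0.27 (-0.12 to 0.67). Subtracting array medians moved every interaction by 0.14, and the share of positive interactions among the calls over all rows to 58.4%, against 73.7% as deposited.

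The step between the 2 cell types was compared within each genotype. These comparisons share arrays with those of KO against Het, so their values are given side by side. In KO, 11 genes were higher in GMP than in LSK and 0 were lower by limma, where 3.66% of all rows were called higher and 2.39% lower. In Het, 15 were higher in GMP and 3 were lower, where 7.9% of all rows were called higher and 9.6% lower. The genes called higher in both genotypes were 9: Ctsb, Ctsz, Hexa, Gla, Gusb, Man2b1, Neu1, Arsb and Grn. The median difference of the 35 genes was 0.29 in KO, against -0.02 over all rows, and 0.25 in Het, against 0.01 over all rows.

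Arsb had the largest step of all 35 genes in both genotypes, 3.33 in KO (SE 0.12, limma adjusted p = 3.32e-06) and 2.04 in Het (adjusted p = 1.79e-05). Gla, the gene of alpha-galactosidase A, which degrades the glycolipid Gb3, read 8.43 and 8.15 in KO GMP against 6.63 and 6.67 in KO LSK, and 8.18 and 8.21 in Het GMP against 6.50 and 6.50 in Het LSK. Both genotypes had the same high and low cell type, with a step of 1.64 in KO (SE 0.13, adjusted p = 0.000126) and 1.70 in Het (adjusted p = 4.16e-05) by limma. Neu1, the sialidase of the lysosome, read 6.74 and 6.54 in KO GMP against 5.62 and 5.21 in KO LSK, and 7.02 and 6.85 in Het GMP against 5.22 and 5.52 in Het LSK. Its step was 1.22 in KO and 1.56 in Het. Hexa read 9.41 and 9.37 in KO GMP against 8.57 and 8.57 in KO LSK, and 9.80 and 9.81 in Het GMP against 8.50 and 8.55 in Het LSK. The steps of Hexa were 0.82 in KO and 1.28 in Het, and that of Ctsb was 1.34 in KO and 1.04 in Het. Gm2a had a step of 1.61 in KO (SE 0.18, adjusted p = 0.00106 by limma), against -0.23 in Het (adjusted p = 0.453). The steps of Arsb, Gla, Neu1, Hexa, Ctsb and Ctsz were called in both genotypes with each array left out in turn.

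The genes called lower in GMP, all in Het, were Ids, Npc1 and Lgmn. Ids read 6.15 and 6.02 in KO GMP against 6.60 and 6.60 in KO LSK, and 5.79 and 6.02 in Het GMP against 6.72 and 6.56 in Het LSK. LSK was the high cell type in both genotypes. The step was -0.51 in KO (limma adjusted p = 0.0545) and -0.73 in Het (adjusted p = 0.00444). Npc1 differed by -0.68 in Het, a call lost without any 1 of the 4 Het arrays (adjusted p = 0.0887 to 0.109), and by 0.00 in KO to 2 decimals. Lgmn differed by -0.56 in Het, a call lost without any 1 array except KO LSK replicate 1 or 2 (adjusted p = 0.0537 to 0.270). Of the remaining genes called higher in GMP, Lamp1 (0.88) and Ctsh (1.71) were called in Het and not in KO (0.33 and 0.77), and so were Lamp2 (0.62), Ctsa (0.41), Manba (0.47) and Npc2 (0.47). In KO, Scarb2 (0.65) was called and in Het it was not (0.21). In Het, calls were lost without any 1 of the 4 Het arrays for Ctsa, Manba and Npc2 (adjusted p = 0.0608 to 0.230 over these and, for Ctsa and Manba, either KO GMP array), without Het LSK replicate 2 or Het GMP replicate 1 for Lamp2 (0.0551 and 0.0605), and without Het LSK replicate 1 or Het GMP replicate 2 for Man2b1 (0.0502 and 0.0529). In KO, they were lost without KO LSK replicate 1 or either KO GMP array for Gusb (0.0693 to 0.126) and Scarb2 (0.0638 to 0.121), without KO LSK replicate 2 or KO GMP replicate 1 for Man2b1 (0.0619 and 0.142), and without either KO GMP array for Grn (0.0764 and 0.127). In KO, the number called higher was 7 without KO GMP replicate 1 and 9 to 11 without any other array. In Het, the number called lower was 1 without any of the 4 Het arrays. The medians of the Het arrays differed by -0.16 between GMP and LSK. Subtracting them gave 17 genes called higher and 2 lower in Het, and moved the share of higher calls over all rows to 67.1%, against 45.1% as deposited.

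**Figure D3:**
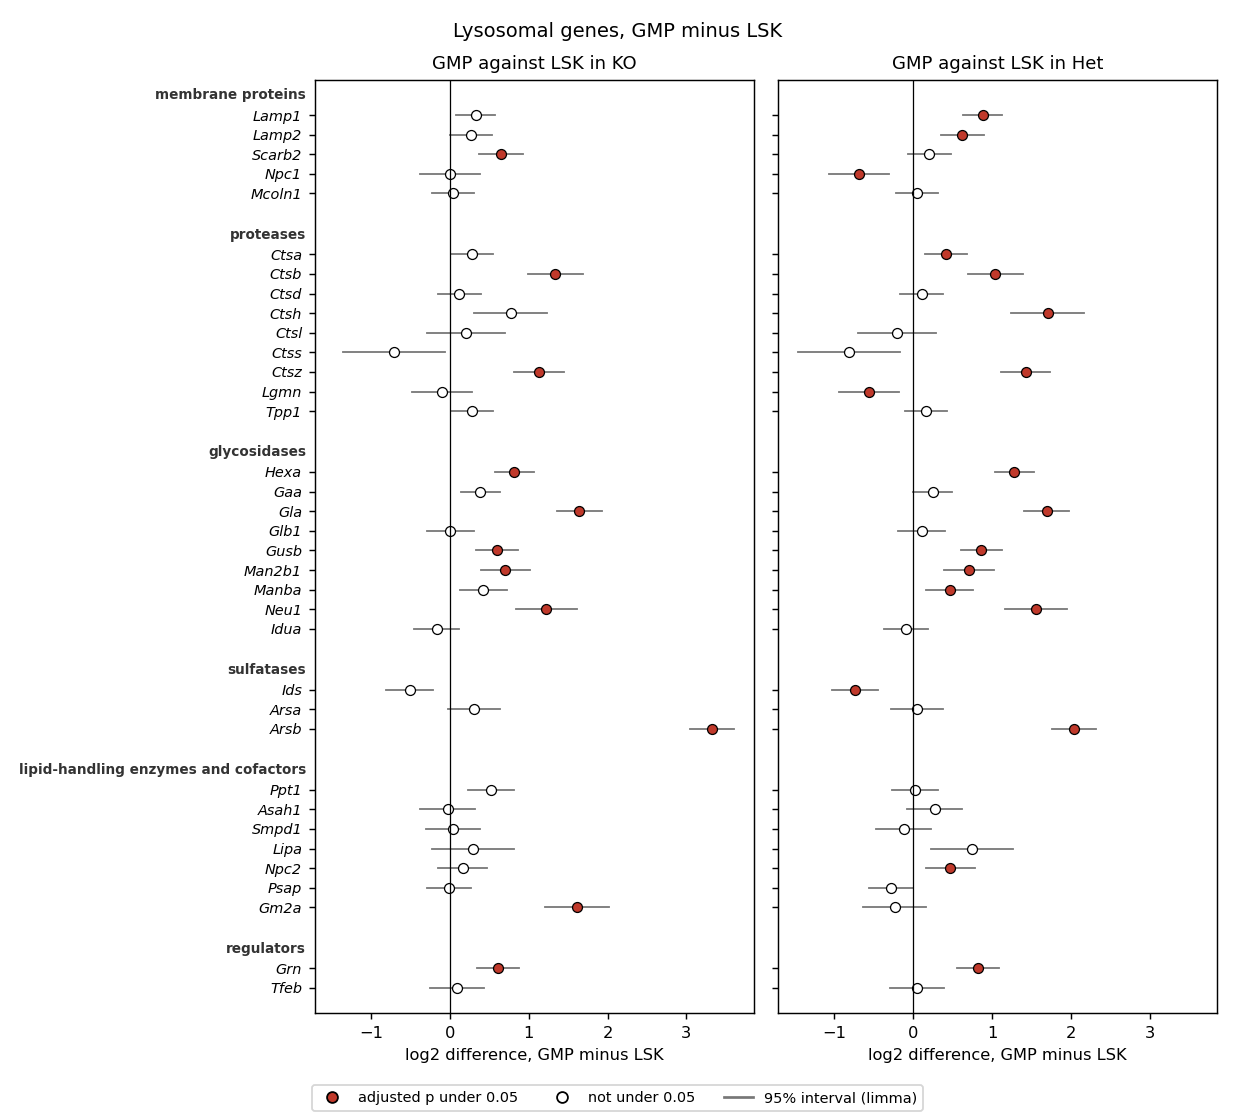
Log2 difference of GMP minus LSK for each of the 35 lysosomal genes, grouped by role, in KO (left panel) and Het (right panel). Points are limma estimates from 2 arrays per group, bars are 95% intervals, and filled points have an adjusted p under 0.05; Arsb lies farthest right in both panels, at 3.33 in KO and 2.04 in Het.

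Other genes of the lysosome and of its supply were counted for context. For comparison with each related list, 4.71% of all rows were called lower and 3.02% higher in LSK, and 2.57% and 3.45% in GMP. In a list of 24 other genes, mostly of lysosomal hydrolases, KO LSK had 3 that fell and 0 that rose by limma. In KO GMP, 4 fell and 1 rose, and the medians were -0.17 in LSK and -0.15 in GMP. The GMP falls include Nagpa (-0.70), the gene of a Golgi enzyme that completes the mannose 6-phosphate tag. The call of Nagpa did not hold with each array left out in turn. Scpep1, a serine carboxypeptidase gene, fell in both (1.13 in LSK, 1.35 in GMP). Ctsw, the gene of a cathepsin of T and NK cells, fell by 1.89 in LSK, and Plbd1, a phospholipase B-like gene, fell by 2.12. In GMP, Acp5, an acid phosphatase gene, fell by 1.52, Ctsc, which encodes the cathepsin that activates granule proteases, fell by 0.94, and Ctso rose by 0.82. Calls were lost for Plbd1 without KO LSK replicate 1 or Het LSK replicate 2 (adjusted p = 0.0866 and 0.0997), for Ctsc without KO GMP replicate 2 or Het GMP replicate 1 (0.0735 and 0.0836) and for Ctso without either KO GMP array or Het GMP replicate 1 (0.0591 to 0.0996). In GMP, 2 hydrolase genes were called lower without KO GMP replicate 2 or Het GMP replicate 1.

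Of 17 other membrane proteins and transporters, 6 fell and 0 rose in KO LSK, and likewise 6 and 0 in KO GMP, with a median of -0.12 in each. Cd63, a tetraspanin of late endosomes and lysosomes, read 7.31 and 7.73 in KO LSK against 9.51 and 9.42 in Het LSK, and 8.56 and 8.40 in KO GMP against 10.23 and 10.39 in Het GMP. It was lower in every KO array than in any Het array of its cell type. Cd63 fell by 1.95 in LSK (SE 0.16, limma adjusted p = 0.000119) and fell by 1.83 in GMP (adjusted p = 0.000207). Laptm4b, a membrane protein gene of late endosomes, fell by 1.52 in LSK and fell by 1.72 in GMP, and Cd68, a lysosomal glycoprotein of macrophages, fell by 1.30 and fell by 1.19. These 3 genes were called in both cell types whichever array was left out. Leaving out a single array made the counts smaller for some arrays and not for others. They were smallest in LSK without Het LSK replicate 2, and in GMP without KO GMP replicate 2, Het GMP replicate 1 or Het GMP replicate 2.

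Of 12 genes for enzyme sorting and activation, 3 fell and 0 rose in KO LSK, and 1 fell and 1 rose in KO GMP. Sorl1, a sorting receptor gene, fell by 1.60 in LSK and fell by 3.37 in GMP. Igf2r, which encodes the large mannose 6-phosphate receptor, read 3.97 and 4.03 in KO LSK against 5.34 and 5.66 in Het LSK, and 5.91 and 5.87 in KO GMP against 5.12 and 5.04 in Het GMP. KO was the low genotype in LSK and the high one in GMP. Igf2r fell by 1.50 in LSK (limma adjusted p = 0.000208) and rose by 0.81 in GMP (adjusted p = 0.0075), though the GMP call was lost without any 1 of the 4 GMP arrays, of KO or of Het (adjusted p = 0.0514 to 0.070). Gnptab, a chain of the enzyme that starts the mannose 6-phosphate tag, fell by 0.63 in LSK, a call lost with every array left out except Het LSK replicate 2 (adjusted p = 0.0544 to 0.215). The small mannose 6-phosphate receptor gene M6pr was not analysed here.

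Among 15 V-ATPase subunit genes, KO LSK had 2 that rose and 0 that fell, and KO GMP had 2 that rose and 1 that fell, with medians of 0.07 and -0.18. Atp6v0a1, a membrane subunit gene, rose by 1.24 in LSK (limma adjusted p = 0.000259) and by 0.60 in GMP, and its relative Atp6v0a2 by 0.73 and 0.69. Atp6ap2, an accessory subunit gene, fell by 1.03 in GMP and differed by -0.26 in LSK. The LSK call of Atp6v0a1 and the GMP call of Atp6ap2 held with each array left out in turn. The GMP call of Atp6v0a1 was lost without any 1 of the 4 GMP arrays, of KO or of Het (adjusted p = 0.0681 to 0.132). Atp6v0a2 lost its LSK call when Het LSK replicate 2 was left out (adjusted p = 0.0638), and its GMP call without KO GMP replicate 2 or either Het GMP array (adjusted p = 0.0529 to 0.131). By the mean of its rows, Atp6v0a2 differed by 0.41 in LSK (adjusted p = 0.125) and 0.35 in GMP (adjusted p = 0.224), without a call in either.

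Of 19 genes for the relatives of TFEB and for nutrient sensing at the lysosome, 1 rose in KO LSK and 2 fell in KO GMP. Tfec, a relative of TFEB, rose by 1.10 in LSK (limma adjusted p = 0.00707) and differed by -0.20 in GMP, while Tfe3 differed by -0.10 and 0.00 and Mitf by -0.34 and -0.49. Lamtor1 and Lamtor4, subunits of the Ragulator complex that anchors mTORC1 at the lysosome, fell by 0.57 and fell by 0.53 in GMP. Both of these calls were lost without any 1 array of Het LSK, KO GMP or Het GMP (adjusted p = 0.069 to 0.276 for Lamtor1 and 0.0641 to 0.299 for Lamtor4), and that of Lamtor1 also by the mean of its rows (adjusted p = 0.0524). Of 19 autophagy genes, 0 were called by limma in either cell type. At an unadjusted p under 0.05, 3 were higher and 1 was lower in each, where of all rows 8.77% were higher and 10.8% lower in LSK, and 8.55% and 8.71% in GMP. The largest differences were 0.45 (Atg9a) and -0.44 (Atg7) in LSK and 0.57 (Gabarapl1) and -0.43 in GMP.

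Cysteine protease inhibitors oppose the cathepsins. The list of 7 inhibitor genes also holds the serpins Serpinb1a and Serpinb6a, of a family that mostly inhibits serine proteases. In this list, KO LSK had 2 that rose and 1 that fell, and KO GMP had 1 of each. The fall in each cell type was that of Serpinb1a, so no cystatin or stefin gene of the list was called lower. Cst7, which encodes cystatin F, an inhibitor that reaches the lysosome, read 9.86 and 10.05 in KO LSK against 8.93 and 8.43 in Het LSK, and 10.59 and 10.60 in KO GMP against 11.14 and 11.09 in Het GMP. KO was the high genotype in LSK and the low one in GMP. Cst7 rose by 1.28 in LSK (limma adjusted p = 0.00168) and differed by -0.52 in GMP (adjusted p = 0.128). Stfa2, a stefin gene, rose by 1.23 in LSK and by 1.23 in GMP, and Serpinb1a fell by 0.58 and fell by 0.67. The calls of Stfa2 were lost without KO LSK replicate 1 or either Het LSK array in LSK (adjusted p = 0.0575 to 0.152) and without any 1 of the 4 GMP arrays in GMP (0.0764 to 0.190). Those of Serpinb1a were lost with every array left out except Het LSK replicate 2 in LSK (0.0705 to 0.217) and without any 1 of the 4 GMP arrays in GMP (0.0996 to 0.178). The stefin genes are near-identical copies whose probes can be shared.

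**Figure D4:**
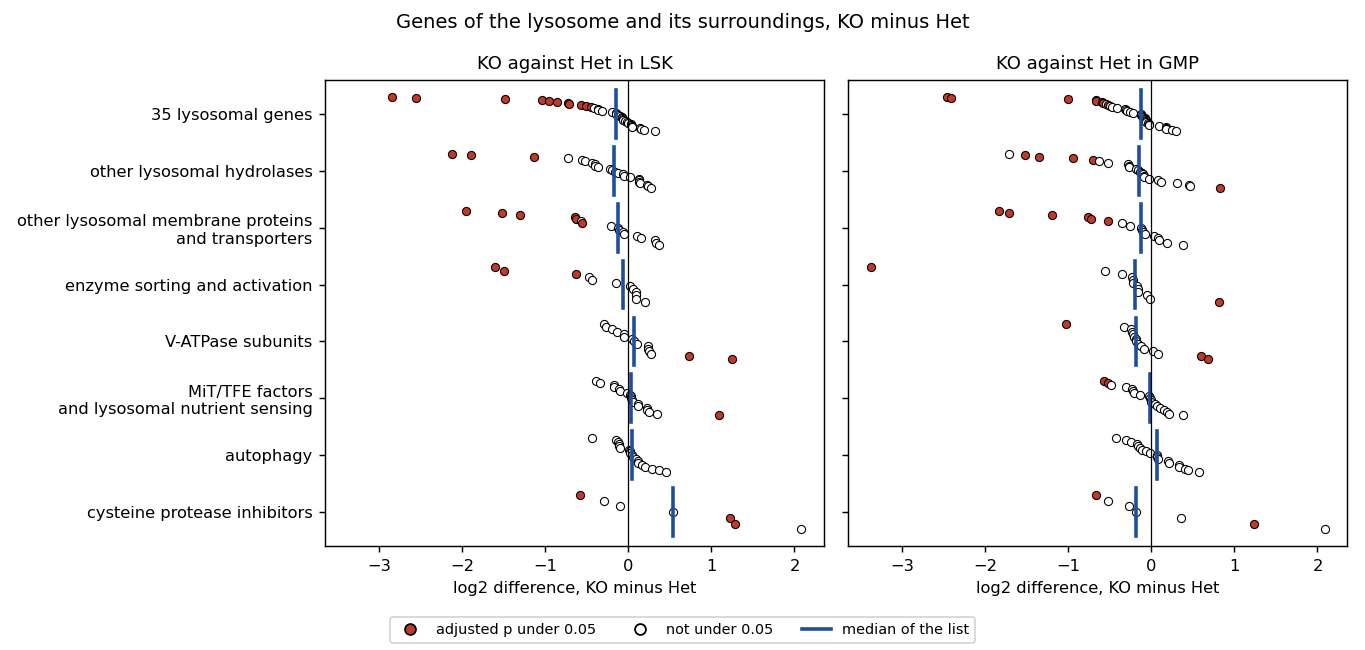
Log2 difference of KO minus Het for the 35 lysosomal genes and for 7 lists of related genes, in LSK (left panel) and GMP (right panel). Each point is a gene, filled where the adjusted p was under 0.05, points within a list are spread vertically in the order of their difference, and the blue line is the median of the list; the 35 lysosomal genes have 11 filled points in LSK and 8 in GMP.

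Markers of lysosome-rich cell types were counted beside the lysosomal genes. For every marker list, the shares over all rows were 4.71% lower and 3.02% higher in LSK, and 2.57% and 3.45% in GMP. Of 11 monocyte and macrophage markers, 3 fell and 2 rose in KO LSK, and 6 fell and 1 rose in KO GMP by limma. Without KO GMP replicate 2, Het GMP replicate 1 or Het GMP replicate 2, 3 were called lower in GMP, and 0 were called higher in LSK without KO LSK replicate 1 or Het LSK replicate 1. Their mean level was 5.14 and 4.97 in KO LSK against 5.73 and 5.70 in Het LSK, and 6.17 and 5.56 in KO GMP against 6.83 and 7.06 in Het GMP. Ly86 (-3.26 in LSK, -4.37 in GMP), Ms4a6c (-2.53, -2.59) and Mpeg1 (-2.81, -1.67) were called lower in both cell types, while Cd14 was called higher in both (1.12, 1.05). The macrophage markers C1qa (3.84 to 4.38 over the 8 arrays) and Fcgr1 (3.77 to 4.25) lay below the median row mean in every array. All LSK arrays of Cd14 (3.39 to 4.92) lay below it too. Of 9 markers of dendritic cells and antigen presentation, 6 fell and 1 rose in KO LSK, the rise being lost without KO LSK replicate 2 or Het LSK replicate 1, and 3 fell and 0 rose in KO GMP. Their mean level was 5.35 and 5.39 in KO LSK against 6.64 and 7.03 in Het LSK, and 4.63 and 4.41 in KO GMP against 5.28 and 5.49 in Het GMP. Itgax, among the falls in LSK (2.61 to 4.01), and Cd209a, the rise (3.52 to 4.31), lay below the median row mean in every array. So did Siglech (3.39 to 4.39), which was not called in either cell type. Flt3 (-3.41) and Irf8 (-1.45), also among the falls in LSK, are expressed by progenitors too and do not mark dendritic cells alone. Cd74, the invariant chain that cathepsin S cuts, fell by 3.41 in LSK and fell by 1.64 in GMP, where leaving out Het GMP replicate 2 ended the call (adjusted p = 0.0513). Calls were also lost for Ly86 in LSK without Het LSK replicate 1 (adjusted p = 0.0713), for Mpeg1 in GMP without KO GMP replicate 2 or either Het GMP array (0.0594 to 0.0960), and for Cd14 without KO LSK replicate 1 or Het LSK replicate 1 in LSK (0.0741 and 0.114) and without KO GMP replicate 1 or either Het GMP array in GMP (0.075 to 0.219). The part of these cell types in the differences of the lysosomal genes was not tested.

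The arrays of KO GMP also differed from each other. Replicate 2 was below replicate 1 for 30 of the 35 lysosomal genes, with a median difference of -0.16, against 13 of 35 in Het GMP (0.03). In LSK it was below for 23 in KO (-0.05) and 20 in Het (-0.02). The same count over all rows was not made, so the order is not shown to be particular to lysosomal genes. Over all rows, the medians of KO GMP replicates 1 and 2 were 4.99 and 4.96. Ly86 read 5.94 in KO GMP replicate 1 and 3.76 in replicate 2, and Ctss read 5.26 and 4.23. Without KO GMP replicate 2, 2 lysosomal genes were called lower in GMP, Ctss and Ctsh. Of other marker lists, 10 neutrophil markers gave 0 calls in GMP and 1 fall in LSK, that of Mpo (-1.19). The 6 B cell markers fell in KO LSK and gave 0 calls in GMP, and leaving out Het LSK replicate 1 ended the call of Cd79b (adjusted p = 0.0516). Of 7 megakaryocyte and platelet markers, 4 rose and 1 fell in KO LSK, and 7 rose in KO GMP. Leaving out Het LSK replicate 2 ended the call of the fall, that of Pf4 (adjusted p = 0.0707), and leaving out either Het GMP array that of Vwf in GMP (0.0824 and 0.103).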

How the data were processed

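Gene expression was measured in 8 samples, 2 arrays for each of the 4 groups, set by the labels' genotype and cell type. RNA was amplified with a NuGEN kit and labelled with biotin, per the labels' protocols. The deposited values are log2 expression values made with RMA, per the submitters' processing notes; the sources used here do not give the software, its version or the genome build. RMA sets all arrays to a common distribution, so a change of the whole transcriptome in 1 direction is hidden, and it gives no detection call, so that changes of dim genes can be understated. Array files state no depth, and the number of arrays limits the precision.

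Of 35556 rows, 21789 carried exactly 1 gene symbol in the platform annotation, and 12146 none and 1621 several, which were left out of the main test. Symbols were checked against a RefSeq table (GRCm38.p6) by Entrez number (21698 rows matched, 0 symbols changed). Differences were tested with limma 3.58.1 (R 4.3.3): lmFit with 1 mean per group over all 8 arrays (4 residual degrees of freedom), eBayes, 5 contrasts, two-sided, with Benjamini-Hochberg adjustment over all 21789 rows and a threshold of 0.05. The code was tested on simulated data. The alternatives were leaving out each array in turn and 7 other settings. Members, lists, the motifs and the rule for named genes were chosen with earlier results of these data known. By that rule, array values are given for genes called in KO against Het or in the interaction and for Lamp1, Tfeb, Grn, Ctsd and Ctsb, and genes called only between GMP and LSK by their 3 largest differences each way. Related lists are named by up to 4 called differences per comparison, or the 2 largest where none was called, and not all of these are printed. Cd63, Igf2r and Cst7 are given by array because of their size or their opposite direction in the cell types, after their values were seen.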

Additional observations from a re-analysis of the deposited data

Results flagged for a closer look

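Some genes differed between LSK and GMP in their KO minus Het effect by limma's interaction test, taken as the GMP effect minus the LSK effect. Among the 35 lysosomal genes these were Gm2a (1.84, adjusted p = 0.00747) and Arsb (1.29, adjusted p = 0.0073). Gm2a fell in both cell types, by 1.00 in GMP and 2.84 in LSK, and Arsb fell in LSK only among its calls (-1.04), with 0.25 in GMP.

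Among the related genes, Igf2r had an interaction of 2.31 (adjusted p = 0.00128), with a rise in KO GMP and a fall in KO LSK. Ctsw had 1.78 (adjusted p = 0.00627), with a fall in LSK and -0.10 in GMP. Sorl1 had -1.77 (adjusted p = 0.00627), with the deeper fall in GMP. Cst7 had -1.80 (adjusted p = 0.00648) and Tfec -1.30 (adjusted p = 0.0409), each with a rise in LSK and a small negative difference in GMP. Acp5 had -1.12 (adjusted p = 0.00963), with a fall in GMP and -0.40 in LSK. All GMP arrays of Ctsw, and all KO arrays of Sorl1 and Acp5, lay below the median row mean. RMA gives no detection call, so falls to such levels can be understated. The interactions of Ctsw, Sorl1 and Acp5 are therefore not shown to be effects of genotype particular to a cell type. Groups of 2 arrays are too small for a check of single outlying arrays.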

How the results depend on the processing

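The direction of every called difference of the 35 lysosomal genes was the same under each alternative, and the counts of calls were not. When rows with no symbol or several were tested too, 5 genes were called lower in KO LSK, 2 in KO GMP, 1 interaction was positive, 1 gene was lower in GMP than in LSK in Het and 7 were higher in KO. With only the arrays of the groups compared, 5 were lower in KO LSK and 7 were higher in GMP than in LSK in KO. With trend and robust in eBayes, 1 interaction was negative (Lamp1), and 1 gene (Ids) was lower in GMP than in LSK in KO, as was 1 with dim rows left out. With each array left out in turn, 5 to 9 genes were lower in KO LSK and 2 to 8 in KO GMP, 0 were higher in either, 2 to 3 interactions were positive and 0 negative, 11 to 16 genes were higher and 1 to 3 lower in GMP than in LSK in Het, and 7 to 11 were higher and 0 to 1 lower in KO. The cause was not tested. The mean of a gene's rows gave the same direction and call for the 62 results of the 35 genes that were recomputed under it. Of the 35 genes only Arsb has more than 1 row, so the differences of the others could not change under this setting. Among the related and marker genes it ended 3 calls, testing all rows ended 32, fitting only the groups compared 12, and subtracting medians and the replicate block 6 each.

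Differences near 0 changed sign in uncalled results. After array medians were subtracted, Ctsd in LSK was 0.0223 and the interaction of Ctss was -0.0388. With single arrays left out, Lamp1 in LSK ranged between -0.00129 and 0.0666, Ctsd in LSK between -0.16 and 0.0287, Tfeb in LSK between -0.33 and 0.0318, Tfeb in GMP between -0.23 and 0.00317, and the interaction of Ctss between -0.41 and 0.61.

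The groups share replicate numbers, but no label ties a number to a mouse. Same-numbered arrays correlated in their deviations from the group means at 0.18 between KO LSK and KO GMP, 0.13 between Het LSK and Het GMP and -0.14 between KO LSK and Het LSK, and at -0.07 to -0.03 for the other pairs. The positive values were those between LSK and GMP of a genotype. The numbers were not taken as pairs, and whether LSK and GMP arrays of 1 number came from the same mouse is not known. If they did, the tests between GMP and LSK and of the interaction leave that pairing out. With the replicate number as a block, 9 genes were lower in KO LSK and 8 in KO GMP. That block joins same-numbered arrays of KO and Het, so it does not stand for a mouse. In LSK, Scarb2 (adjusted p = 0.0558) and Gaa (0.0591) lost their calls under the block.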
